A study of Homo sapiens with 6 samples.

Results

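Chemokines, their receptors and interleukin-1β form a small set of inflammatory transcripts, and 10 of their genes were followed here by symbol among the 26410 rows of a count table from Kasumi-1 cells. They comprise the CXC chemokines CXCL8, CXCL2, CXCL3 and CXCL16, the CC chemokines CCL3 and CCL4, the cytokine IL1B, and the receptors CXCR4, CCR1 and CCR7. Kasumi-1 is an established human acute myeloid leukaemia line that carries the RUNX1::RUNX1T1 fusion. RNA was sequenced from 3 libraries of control cells and 3 libraries of cells with a short hairpin RNA against PHF19 (shPHF19). The title of the study names a scrambled hairpin for the control cells, whose treatment label reads WT. Both hairpins came in a lentiviral vector with GFP and puromycin resistance, and cells were put into puromycin (2 µg/ml) 48 h after they received it for at least 24 h. All cells are of 1 line. The labels give neither the number of hairpins or clones nor separate cultures for the replicates, so every p-value here speaks of library-to-library spread, which can be purely technical. PHF19 belongs to a form of Polycomb repressive complex 2, the enzyme complex that methylates histone H3 at silenced genes. The question was which of these transcripts differed when PHF19 was silenced.

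Chemokines are small secreted proteins that direct the movement of leukocytes by binding receptors coupled to G proteins. CXC and CC chemokines differ in the spacing of their first cysteines, and those of the CXC group with a glutamate-leucine-arginine stretch, such as CXCL8, CXCL2 and CXCL3, attract neutrophils. In myeloid cells many of them, and IL1B, are made on inflammatory stimulation through the transcription factor NF-kappaB, whereas CXCR4 holds haematopoietic cells in the bone marrow by binding CXCL12.

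CXCL8, CXCL3 and CXCL2 lie in 1 row of chemokine genes on chromosome 4, and their promoters are shown because they share a motif. The letters come from RefSeq (GRCh38.p14) and cover the 250 bases before the annotated start, in the direction of the gene, at chr4:73740319-73740568 (plus strand) for CXCL8, chr4:74099196-74099445 (minus strand) for CXCL2 and chr4:74038690-74038939 (minus strand) for CXCL3. Capitals mark matches to GGAATTTCC or to the kappaB consensus, both of which are sequences bound by NF-kappaB, so they overlap where both match. The RefSeq start of each of these genes lies inside the longer gene span of GENCODE 29 given below.
CXCL8: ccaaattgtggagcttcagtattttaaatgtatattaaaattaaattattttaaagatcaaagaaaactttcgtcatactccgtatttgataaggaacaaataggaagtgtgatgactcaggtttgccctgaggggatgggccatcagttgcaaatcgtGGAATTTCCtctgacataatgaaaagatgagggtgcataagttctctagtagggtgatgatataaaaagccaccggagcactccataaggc
CXCL2: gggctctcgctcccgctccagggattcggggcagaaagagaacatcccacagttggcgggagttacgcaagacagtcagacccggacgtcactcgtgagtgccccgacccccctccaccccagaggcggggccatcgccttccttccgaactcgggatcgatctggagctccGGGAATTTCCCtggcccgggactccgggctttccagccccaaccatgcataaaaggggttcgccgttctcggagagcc
CXCL3: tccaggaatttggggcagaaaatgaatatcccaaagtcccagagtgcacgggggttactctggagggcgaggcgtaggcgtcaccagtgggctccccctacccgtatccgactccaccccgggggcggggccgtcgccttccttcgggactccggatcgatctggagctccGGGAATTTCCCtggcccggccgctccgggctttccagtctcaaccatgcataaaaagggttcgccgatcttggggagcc
GGAATTTCC stood 91 to 83 bases before the start in CXCL8, 77 to 69 in CXCL2 and 78 to 70 in CXCL3. Searched on both strands, it was found in 0.413% of 35093 promoter windows of this length and in 3 of the 7 members for which a promoter sequence was at hand (CXCL8, CXCL2, CXCL3, CCL3, IL1B, CXCR4 and CCR1). GGAATTTCC was also found before CXCL1, CXCL5 and CXCL6, further genes of the same row. Of these only CXCL6 had enough counts to be tested, and it was not called. The kappaB consensus was found in CXCL2 and CXCL3 and in 9.95% of all windows. The AP-1 motif TGANTCA was found in CXCL8 alone of the 7 (6.57% of all windows), and the C/EBP motif TTGCNNAA in CXCL2, CCL3 and IL1B (9.05%), both on either strand. TATAAA, searched on the sense strand, stood before CXCL8, CCL3 and CXCR4 (6.80% of all windows). The CXCL2 and CXCL3 windows were 73.3% identical when aligned end to end. The longest run of identical bases shared by them was 37, against 9 between CXCL8 and either of them. A match says only that these letters are present.

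The libraries held 14229878 to 16615143 counts. Levels are given as CPM, counts scaled to library size, with TMM factors that set the bulk of genes equal between libraries. A gene without a count could lie at up to 3 counts, or 0.177 to 0.223 CPM. PHF19 itself stood at 185 ± 16.1 CPM (SD, n = 3) in control and 37.0 ± 4.04 CPM (SD, n = 3) in shPHF19 libraries (edgeR adjusted p = 3.75e-25). KIT, CD34, MPO and RUNX1T1, markers of this line, had between 145 and 8386 CPM on average in either group. Of its 10 listed markers 9 were tested (4 higher, 2 lower, 3 not called, against 29.4% higher and 30.9% lower of all genes tested). The other, CD38, was near the floor, with 0, 6 and 0 counts in control and 4, 6 and 2 in shPHF19 libraries. The summed level of that list was 8116 to 8426 CPM in control and 12909 to 13653 CPM in shPHF19 libraries. Among 10 listed monocyte and macrophage markers, CD14, FCGR3A, CD163, MRC1 and MARCO had under 0.3 CPM on average in both groups. The summed level of that list was 139 to 154 CPM in control and 66.1 to 71.2 CPM in shPHF19 libraries, mostly MS4A7, CD68 and CSF1R. Of its 5 tested genes MS4A7 and CD68 fell, FCN1 rose (0, 0 and 1 against 12, 16 and 15 counts; edgeR adjusted p = 1.51e-05), and CSF1R and VCAN were not called. FCN1 and VCAN passed the filter on low counts through the shPHF19 group alone. The calls of this list, and those of the T and NK list below, stand beside the same shares over all genes tested. The lists for other cell types summed to 111 to 128 CPM in control and 138 to 158 CPM in shPHF19 libraries for mature neutrophils (FCGR3B at 0), 48.4 to 56.0 and 54.4 to 58.5 CPM for T and NK cells (KLRD1 at 0; CD3D rose, and CD3E, CD8A and NKG7 fell), 85.2 to 97.0 and 77.2 to 89.6 CPM for B cells, and 57.8 to 71.5 and 84.5 to 100.2 CPM for fibroblasts, epithelium or endothelium. Most of the neutrophil sum came from CSF3R, and most of the T and NK sum from CD3D. PAX5 and CD79B made up most of the B cell sum, and EPCAM most of the last. The part of these marker differences in the results on the chemokines was not tested, and in bulk RNA fewer cells of a type and less RNA per cell cannot be told apart.

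Of the 10 genes, 6 fell in shPHF19 cells: CXCL8, CXCL2, CXCL16, CCL4, CCR1 and CCR7. None rose, IL1B and CXCL3 did not pass the test, and CCL3 and CXCR4 had too few counts to be tested after the filter on low counts. Among all 13014 genes tested with edgeR, 60.2% passed an adjusted p of 0.05, 30.9% as lower and 29.4% as higher. The 6 members that fell did so by at least 2-fold, which 10.9% of all genes tested did, while 5.72% rose by as much. The median log2 fold change was -1.47 over the 8 members tested and -0.03 over all genes tested. Only 3 members, CXCL8, CXCL16 and CCR1, had enough counts in both groups to pass the filter by either group alone. CXCL2, CCL4, IL1B and CCR7 passed through the control group alone, where they were higher, and CXCL3 through the shPHF19 group alone, so the count over the tested members is a description. Over all 10 members the control values lay above all shPHF19 values for 9, the exception being CXCL3. The closest libraries of the 2 groups held 3 against 2 counts for CXCR4, 6 against 2 for CCL3 and 16 against 13 for CCR7. For IL1B they held 26 against 23 and for CXCL2 39 against 30. Gaps of this size are within counting error. All control values lay above all shPHF19 values for 7 of the 8 members tested, against 32.6% of all genes tested.

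**Figure D1:**
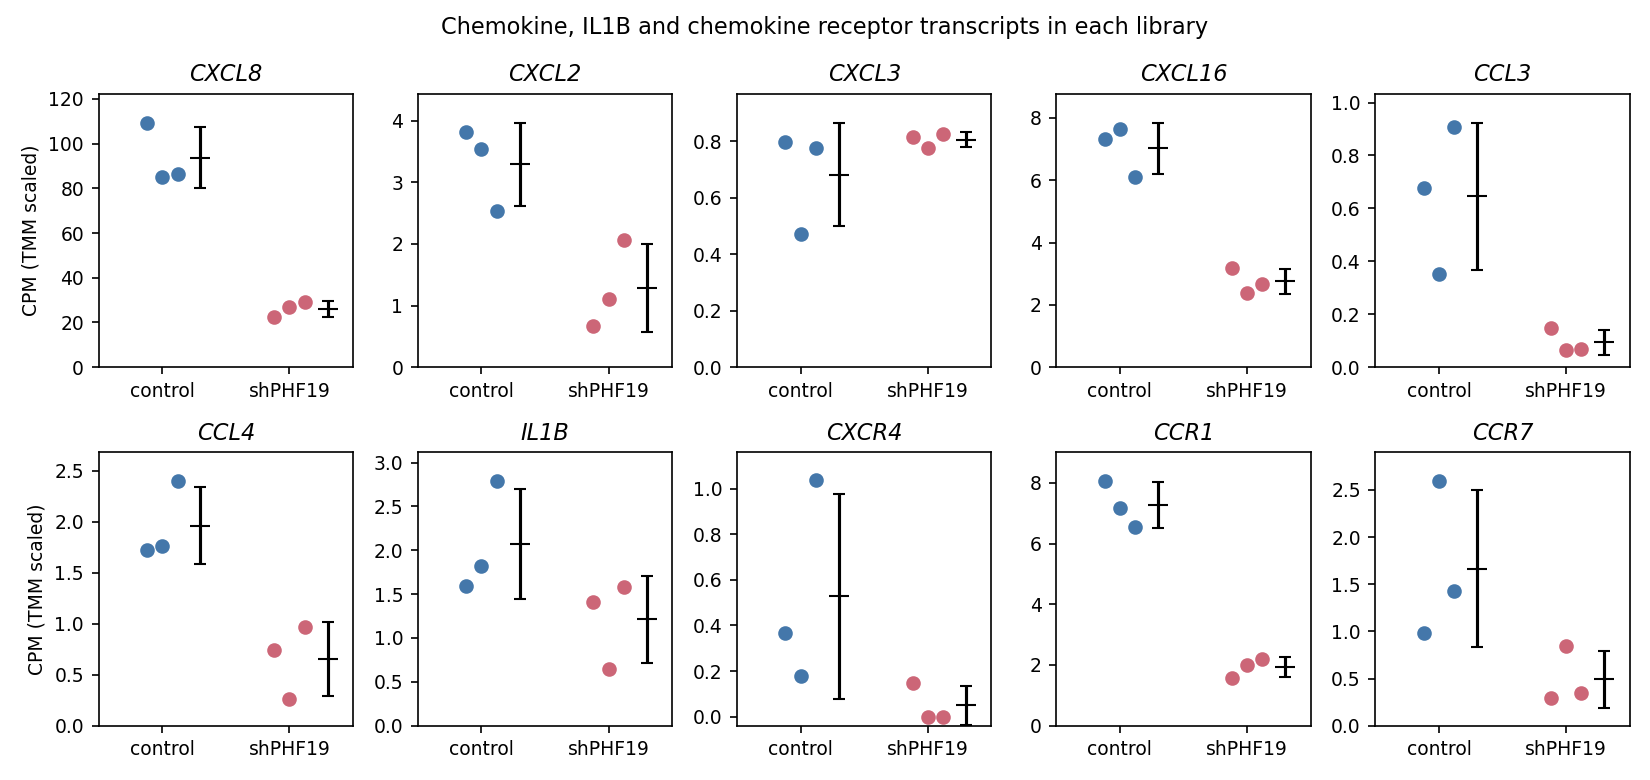
TMM-scaled CPM of each of the 10 genes in the 3 control (blue) and 3 shPHF19 (red) libraries, on a linear axis of its own for each gene; the black mark is the mean with 1 SD each way. The groups are apart for 9 genes, by a wide margin for CXCL8, CXCL16 and CCR1, and overlap for CXCL3. For CXCL2, CCL3, IL1B, CXCR4 and CCR7 the gap between the closest libraries is within counting error.

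Levels were compared between genes per kilobase of annotated exon (GENCODE 29). In control cells CXCL8 had the highest level, 41.2 ± 5.99 CPM per kb (SD, n = 3). CCR1 (2.66 ± 0.277 CPM per kb), CXCL16 (2.51 ± 0.294) and CXCL2 (2.19 ± 0.450) followed, and the values of these 3 overlapped. CCL4 came next at 0.965 ± 0.186 CPM per kb, overlapping IL1B (0.668 ± 0.204) and CCR7 (0.664 ± 0.331). The lowest were CCL3 (0.432 ± 0.186 CPM per kb), CXCL3 (0.308 ± 0.0826) and CXCR4 (0.237 ± 0.203), which overlapped one another. CCL3 also overlapped IL1B and CCR7, and CXCR4 also overlapped CCR7. In shPHF19 cells CXCL8 was still highest at 11.5 ± 1.55 CPM per kb, and CXCL3, at 0.363 ± 0.0116 CPM per kb, was above CCR7, CCL3 and CXCR4 in each library.

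CXCL8 encodes interleukin-8, the main chemoattractant of human neutrophils. It lies on the plus strand of chromosome 4 from 73740506 to 73743716 (GRCh38, GENCODE 29). It had 1779, 1445 and 1333 counts in the control libraries and 300, 418 and 423 in the shPHF19 libraries, here and below in the order of replicates 1, 2 and 3. Each shPHF19 library thus held fewer than each control library. Its level went from 93.6 ± 13.6 to 26.1 ± 3.52 CPM (SD, n = 3), which is 3.58-fold lower (log2 fold change -1.84, SE 0.112; edgeR adjusted p = 3.96e-19). CXCL8 made up most of the counts of the 6 chemokine ligands among the members, 87.2 ± 1.18% in control and 82.3 ± 2.83% in shPHF19 libraries (SD, n = 3). That share was lower in each shPHF19 library, at 80.0, 85.5 and 81.5% against 88.4, 86.1 and 87.2% (2-sided exact permutation test, p = 0.1, which is the lowest value 3 against 3 can give; adjusted p = 0.1 over 8 such comparisons of sums and ratios). Without CXCL8 the other 5 ligands together stood at 13.6 ± 0.824 CPM in control and 5.59 ± 1.004 CPM in shPHF19 libraries (SD, n = 3), 2.43-fold lower, also with an exact permutation p of 0.1.

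CXCL2 (MIP-2α), which acts on the same receptor as CXCL8, was expressed at a lower level and fell too. It lies on chromosome 4 between 74097035 and 74099293, on the minus strand. The control libraries held 62, 60 and 39 counts and the shPHF19 libraries 9, 17 and 30. The groups did not overlap, although shPHF19 replicate 3 came near the lowest control library. The level was 3.29 ± 0.675 CPM in control and 1.28 ± 0.715 CPM in shPHF19 cells (SD, n = 3; log2 fold change -1.35, SE 0.367; edgeR adjusted p = 0.00141).

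CXCL3 (MIP-2β), on the same strand from 74036589 to 74038807, is the gene among the 10 whose values did not separate. It had 13, 8 and 12 counts in control and 11, 12 and 12 in shPHF19 libraries. The log2 fold change was 0.24 with an approximate 95% interval of -0.80 to 1.28 (edgeR adjusted p = 0.713), so falls as deep as those of CXCL8 and CXCL2 lay outside it. CXCL3 counts were 0.210, 0.133 and 0.308 of those of CXCL2 in control libraries and 1.22, 0.706 and 0.400 in shPHF19 libraries. The ratio was higher in each shPHF19 library (2-sided exact permutation test, p = 0.1, the smallest possible; adjusted p = 0.1 over the 8 comparisons). The coding sequences of CXCL2 and CXCL3 are 94.4% identical and share a run of 97 identical bases, and those of CXCL1 and CXCL2 are 93.5% identical. The sources used here do not give how the counting treated reads that match more than 1 of these genes, so the split between CXCL2 and CXCL3 is uncertain. Summed, CXCL2 and CXCL3 stood at 3.97 ± 0.653 CPM in control and 2.08 ± 0.725 CPM in shPHF19 cells (SD, n = 3; exact permutation p = 0.1, 2-sided).

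The row of genes from CXCL8 to CXCL2 spans 359 kb and holds 6 more chemokine genes. CXCL6, a further neutrophil attractant, had 27 counts over the 3 control and 29 over the 3 shPHF19 libraries (log2 fold change 0.26; edgeR adjusted p = 0.726). PPBP, a platelet chemokine, had 20 and 14 counts, CXCL1 had 1 and 3, CXCL5 had 0 and 1, and PF4 and PF4V1 had none. CXCL8 and CXCL2 were thus the 2 genes of the row with more than 50 counts in either group, and both fell.

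**Figure D2:**
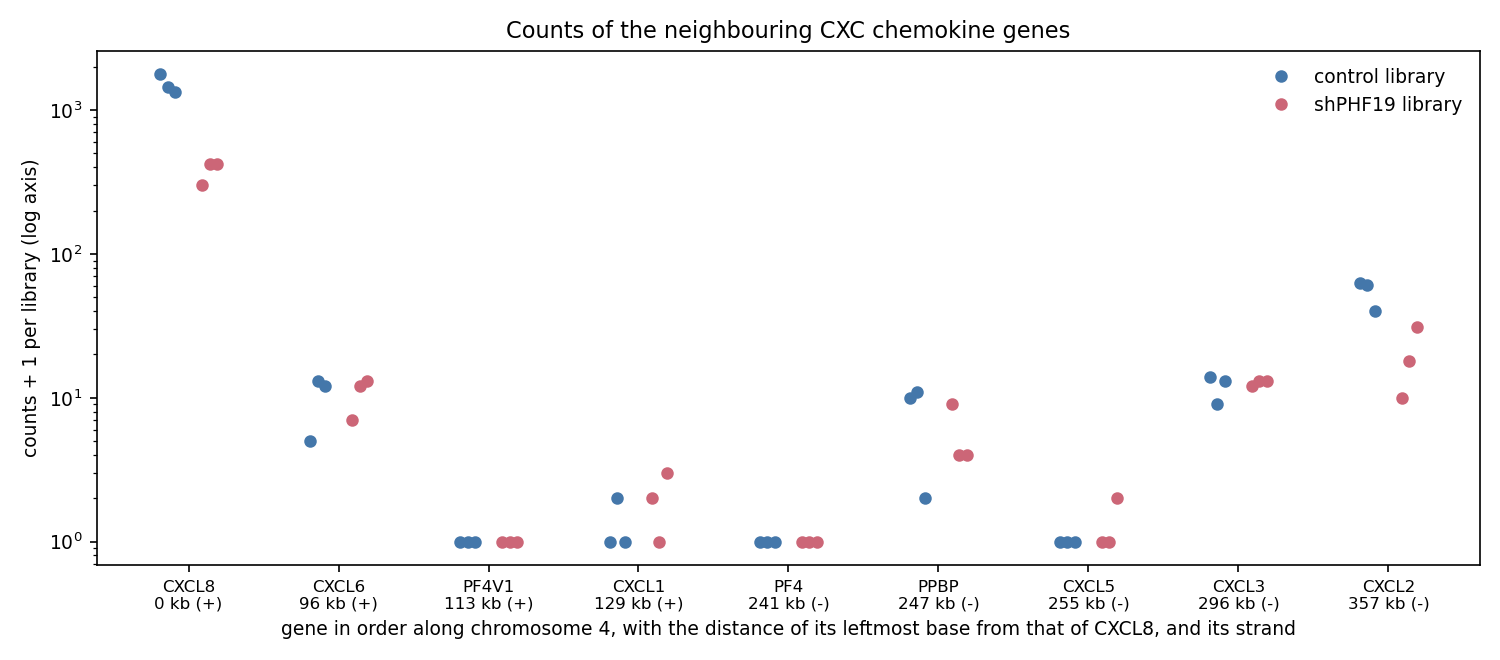
Counts plus 1 (log axis) of 9 chemokine genes in order along chromosome 4, with the distance of each from CXCL8 in kb; each point is a control (blue) or shPHF19 (red) library. CXCL8 stands above the other genes in both groups, and CXCL2 stands above its neighbours in the control libraries. In shPHF19 libraries the counts of CXCL2 overlap those of CXCL3. Both CXCL8 and CXCL2 are lower in every shPHF19 library than in every control library, whereas CXCL3 and CXCL6 overlap between groups.

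CXCL16 is made as a membrane protein that is also shed, and it binds CXCR6. It lies on chromosome 17 between 4733526 and 4739922, on the minus strand. Its counts were 119, 130 and 94 in control and 43, 37 and 39 in shPHF19 libraries, with no overlap. The level fell from 7.02 ± 0.823 to 2.76 ± 0.402 CPM (SD, n = 3; log2 fold change -1.35, SE 0.237; edgeR adjusted p = 3.18e-06). The gene overlaps MED11 on the opposite strand, and MED11 had 49, 52 and 57 counts in control and 74, 67 and 61 in shPHF19 libraries (log2 fold change 0.52; edgeR adjusted p = 0.0766). The strand setting of the counting is unknown here, so reads of the overlapping stretch could belong to either gene.

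CCL3 (MIP-1α) and CCL4 (MIP-1β), chemokines of monocytes and T cells, are neighbours on chromosome 17, 13.4 kb apart (CCL3 on the minus strand from 36088256 to 36090169, CCL4 on the plus strand from 36103590 to 36105621). CCL4 had 28, 30 and 37 counts in control and 10, 4 and 14 in shPHF19 libraries, with no overlap. It fell from 1.96 ± 0.378 to 0.655 ± 0.360 CPM (SD, n = 3; log2 fold change -1.58, SE 0.467; edgeR adjusted p = 0.00316).

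CCL3 had 11, 6 and 14 counts in control libraries and 2, 1 and 1 in shPHF19 libraries. The ratio of control to shPHF19 counts, scaled by library size, was 6.92 with an exact (Clopper-Pearson) 95% interval of 2.45 to 27.0, which covers counting error only. It did not pass the filter on low counts. In a fit without that filter its log2 fold change was -2.67 (edgeR adjusted p = 0.0231), and in that fit the call was lost without control replicate 1 (0.0660) or 3 (0.137) and without shPHF19 replicate 2 (0.0703) or 3 (0.0673). With the filter, CCL3 was tested, and called lower, in 4 of the fits that leave out a library: without control replicate 2 (edgeR adjusted p = 0.00535) and without shPHF19 replicate 1 (0.0107), 2 (0.0304) or 3 (0.0287).

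Both genes have related copies. CCL4L2 had 25, 35 and 37 counts in control and 3, 4 and 3 in shPHF19 libraries (log2 fold change -3.07, SE 0.546; edgeR adjusted p = 4.06e-06). The longest annotated coding sequence of CCL4L2 (309 bases) is 75.2% identical end to end to that of CCL4 (276 bases). Gaps count as differences in that figure, and any shorter annotated forms were not aligned. The aligned forms share a run of 128 identical bases. CCL4 and CCL4L2 together stood at 3.96 ± 0.777 CPM in control and 0.884 ± 0.333 CPM in shPHF19 cells (SD, n = 3; 4.48-fold lower; exact permutation p = 0.1, 2-sided, the smallest possible). CCL3L1, whose coding sequence is 95.7% identical to that of CCL3, had no count in control and 2 in shPHF19 libraries. The counts of a gene and its copy cannot be told apart where reads match both.

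IL1B encodes interleukin-1β, a cytokine that is cut to its active form by caspase-1 and induces chemokines in many cells. It lies on chromosome 2 between 112829751 and 112836903, on the minus strand. The counts were 26, 31 and 43 in control and 19, 10 and 23 in shPHF19 libraries. In CPM the values were 1.60, 1.83 and 2.79 against 1.41, 0.647 and 1.58, so that the highest shPHF19 library lay just under the lowest control library. The log2 fold change was -0.77 with a 95% interval of -1.58 to 0.04 (edgeR adjusted p = 0.104), and the gene did not pass the test. With library totals in place of TMM it did (log2 fold change -0.98; edgeR adjusted p = 0.0394), in a scaling where the median of all genes moved from -0.03 to -0.24.

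Among the receptors CCR1 had the clearest fall. CCR1 binds CCL3 and other CC chemokines on monocytes, and it lies on chromosome 3 between 46201709 and 46208396, on the minus strand. It had 131, 122 and 101 counts in control and 21, 31 and 32 in shPHF19 libraries. Every shPHF19 library was at least 3-fold below every control library in counts. The level fell from 7.26 ± 0.755 to 1.92 ± 0.330 CPM (SD, n = 3; 3.78-fold lower; log2 fold change -1.91, SE 0.252; edgeR adjusted p = 8.05e-09). CCR3, which overlaps it on the opposite strand, had 12 counts in control libraries and 1 in shPHF19 libraries.

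CCR7, the receptor for CCL19 and CCL21 that guides cells to lymph nodes, lies on chromosome 17 between 40553769 and 40565472, on the minus strand. It had 16, 44 and 22 counts in control and 4, 13 and 5 in shPHF19 libraries. The groups did not overlap, but control replicate 2 and shPHF19 replicate 2 stood above the other libraries of their groups. The level was 1.67 ± 0.831 CPM in control and 0.494 ± 0.302 CPM in shPHF19 cells (SD, n = 3; log2 fold change -1.72, SE 0.515; edgeR adjusted p = 0.00364). The call was lost without control replicate 2 (-1.23; edgeR adjusted p = 0.0868), and without shPHF19 replicate 2 the log2 fold change was -2.35 (edgeR adjusted p = 0.00155; 0.00143 to 0.0868 over all alternatives).

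CXCR4, at 136114349 to 136118165 of chromosome 2 (minus strand), was close to the detection limit. It had 6, 3 and 16 counts in control and 2, 0 and 0 in shPHF19 libraries, so 16 of the 25 control counts came from replicate 3. The scaled ratio of control to shPHF19 counts was 11.2 with an exact 95% counting interval of 2.78 to 97.2, and 5.88 without control replicate 3. In the fit without the filter the log2 fold change was -3.26 (edgeR adjusted p = 0.0227). That call was lost without control replicate 3 (-2.33; edgeR adjusted p = 0.266), without shPHF19 replicate 2 (0.0929) or 3 (0.0905), and in DESeq2 (-3.45; adjusted p = 0.0542).

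**Figure D3:**
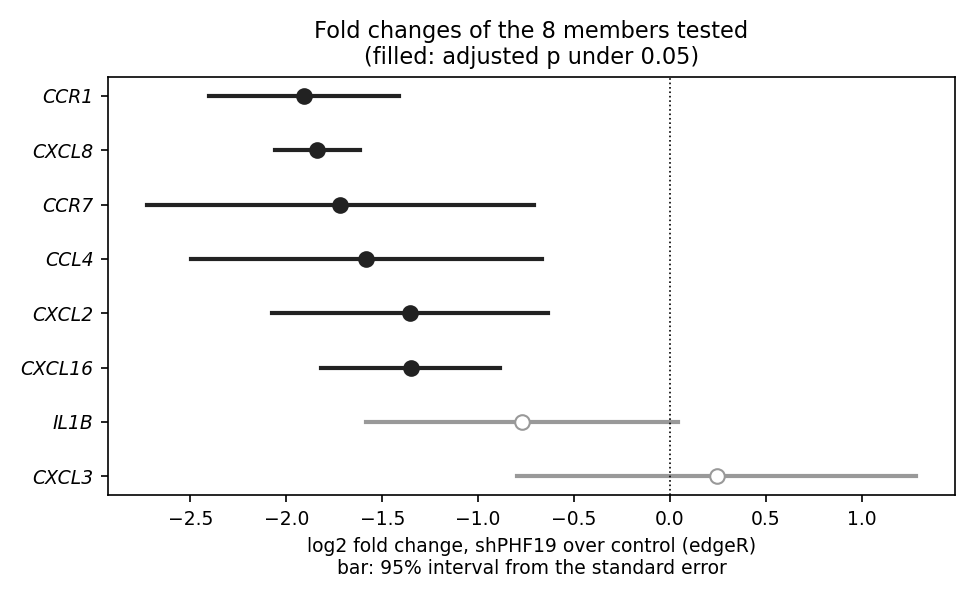
Log2 fold change of shPHF19 over control for the 8 genes tested, with a 95% interval from the standard error; filled points passed an adjusted p of 0.05. CCR1 and CXCL8 have the narrowest intervals relative to their change, CCR7 and CCL4 have wide ones, and those of IL1B and CXCL3 include 0.

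The authors' deposited table lists 4 of the 10 genes, each lower. It gives log2 fold changes of -1.80 for CXCL8, -1.09 for CXCL2, -1.24 for CXCL16 and -1.81 for CCR1, with adjusted p of 3.25e-46, 0.00705, 9.79e-06 and 1.68e-09. The largest adjusted p in the authors' deposited table is 0.00993 and the smallest mean normalized signal is 10.0, so the absence of a gene from it does not say that it did not differ.

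Among 13 other CXC chemokine genes with a row, CXCL6 alone had enough counts to be tested. Of 29 other CC, XC and CX3C chemokine genes 5 were tested, and these 5 fell, against 30.9% of all genes tested. CCL24 and CCL4L2 passed the filter through the control group alone, so this count is a description. CCL24 (eotaxin-2, an eosinophil attractant) had 19, 33 and 20 counts in control and 0, 2 and 0 in shPHF19 libraries (log2 fold change -4.78; edgeR adjusted p = 1.81e-06). CCL20, which binds CCR6, fell from 3.78 to 1.94 CPM (log2 fold change -0.97), a call lost without control replicate 1 (adjusted p = 0.0527) or shPHF19 replicate 2 (0.0523) in edgeR. CCL5 (RANTES), a T cell attractant, fell from 109 to 84.1 CPM (log2 fold change -0.38; edgeR adjusted p = 0.000455). CCL28, made mainly by mucosal epithelium, fell from 34.8 to 28.2 CPM (log2 fold change -0.30; edgeR adjusted p = 0.0218). The call of CCL28 was lost without control replicate 1, shPHF19 replicate 1 or shPHF19 replicate 3 (0.0525 to 0.0795), and also with no filter (0.0540) and in DESeq2 (0.0505).

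Of 10 other chemokine and chemoattractant receptors tested 5 fell and none rose, against 30.9% and 29.4% of all genes tested. C5AR1 and CXCR3 passed the filter through the control group alone, and this count too is a description. C5AR1, the receptor for complement C5a, had 63, 56 and 47 counts in control and 5, 7 and 3 in shPHF19 libraries (log2 fold change -3.27). CXCR3, a receptor of activated T cells, went from 24, 45 and 22 to 2, 7 and 1 counts (log2 fold change -2.98), and CX3CR1, the fractalkine receptor, from 76, 78 and 85 to 15, 14 and 18 (log2 fold change -2.18). C3AR1, the receptor for complement C3a, fell from 46.1 to 14.4 CPM (log2 fold change -1.67) and LTB4R, a leukotriene receptor, from 33.4 to 25.2 CPM (log2 fold change -0.41). CXCR2, the receptor of CXCL8, CXCL2 and CXCL3, had 10.8 CPM in control and 13.8 CPM in shPHF19 libraries and did not pass (log2 fold change 0.36; edgeR adjusted p = 0.0535), though it did with DESeq2 size factors in edgeR (0.38; 0.0429) and without shPHF19 replicate 1 (0.52; 0.00709).

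Several partners of the 10 genes had few counts in either group. CXCR1, the other CXCL8 receptor, had 0, 1 and 10 counts in control and none in shPHF19 libraries. CXCR6, which binds CXCL16, had 4, 3 and 3 against 3, 3 and 11. CXCL12, which binds CXCR4, had 1 count in all, CCL19 had 7 in control and 6 in shPHF19 libraries, and CCL21 had 3 and 2. Most of these levels are at or near the limit that a count of 0 allows. CXCR1 in control replicate 3 (0.648 CPM) and CXCR6 in shPHF19 replicate 3 (0.757 CPM) were well above it.

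Genes of the interleukin-1 family and its signalling moved both ways, with 7 lower, 4 higher and 3 not called of 14 tested. Of all genes tested, 30.9% were lower and 29.4% higher. IL1RN and IRAK2, both lower, passed the filter through the control group alone, so this count is a description. IL1RN, which encodes the receptor antagonist, had 39, 41 and 42 counts in control and 14, 11 and 8 in shPHF19 libraries (log2 fold change -1.71; edgeR adjusted p = 0.000463). IL18, a related cytokine, fell from 22.3 to 13.0 CPM (log2 fold change -0.78). The kinase gene IRAK1 rose by 0.96 on the log2 scale, from 178 to 348 CPM. IRAK4 (-0.60), IRAK3 (-0.45) and the ubiquitin ligase gene TRAF6 (-0.63) fell. IL1RAP, the accessory receptor chain, had 177 CPM in control and 179 CPM in shPHF19 cells (log2 fold change 0.02; edgeR adjusted p = 0.892), whereas the receptor IL1R1 had 10, 6 and 7 against 0, 1 and 3 counts, and the decoy receptor IL1R2 had 4 counts in control and 5 in shPHF19 libraries.

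Of 8 tested genes that process interleukin-1 or chemokines 4 fell, 1 rose and 3 were not called. Over all genes tested 30.9% fell and 29.4% rose. NLRP1, an inflammasome sensor, fell from 15.5 to 3.54 CPM (log2 fold change -2.12), and NLRP3, another, from 11.2 to 8.08 CPM (log2 fold change -0.47; edgeR adjusted p = 0.0203). ADAM17 (log2 fold change -0.80) and ADAM10 (log2 fold change -0.31), membrane proteases that shed CXCL16 and other proteins, fell, and GSDMD, the pore former of pyroptosis, rose (log2 fold change 0.55). The call of NLRP3 was lost without control replicate 1, control replicate 3 or shPHF19 replicate 3, and that of ADAM10 without control replicate 1 (edgeR adjusted p = 0.120, 0.0575, 0.0739 and 0.0763). NLRP3 was not called in DESeq2 either (0.0760).

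Against 29.4% higher and 30.9% lower of all genes tested, the signalling genes downstream of chemokine receptors were split. Of these 28 tested, 12 were higher, 10 lower and 6 not called. With library totals in place of TMM 7 were higher and 11 lower, and with upper-quartile factors 11 and 11. RAC1, a GTPase of cell migration, rose from 132 to 303 CPM (log2 fold change 1.20), and PLCB3 (1.07), GNAI2 (0.77) and GNB2 (0.77) rose as well. PREX1, an exchange factor for Rac, fell from 154 to 69.4 CPM (log2 fold change -1.15). Among 6 other inflammatory cytokines tested, TNFSF13B (BAFF) rose from 13, 5 and 10 to 51, 39 and 66 counts (log2 fold change 2.63), TGFB1 rose (0.29, not called with library totals or upper-quartile factors) and TNFSF10 (TRAIL) fell (-0.91; edgeR adjusted p = 0.0352). TNFSF13B passed the filter through the shPHF19 group alone. TNF and IL23A, not called, passed it through the control group alone, so the count of this list is a description. The call of TNFSF10 was lost without control replicate 1 or 3 and without shPHF19 replicate 2 or 3 (0.0612 to 0.154), and in DESeq2 (0.102). With library totals 1 gene of this list was higher and 4 lower, and with upper-quartile factors 1 and 3, against 2 and 1 with TMM. Over all 72 companion genes tested 32 fell, 19 rose and 21 were not called, against 30.9% lower and 29.4% higher of all genes. The median log2 fold change of the companion genes was -0.25. With library totals in place of TMM 38 fell and 11 rose.

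**Figure D4:**
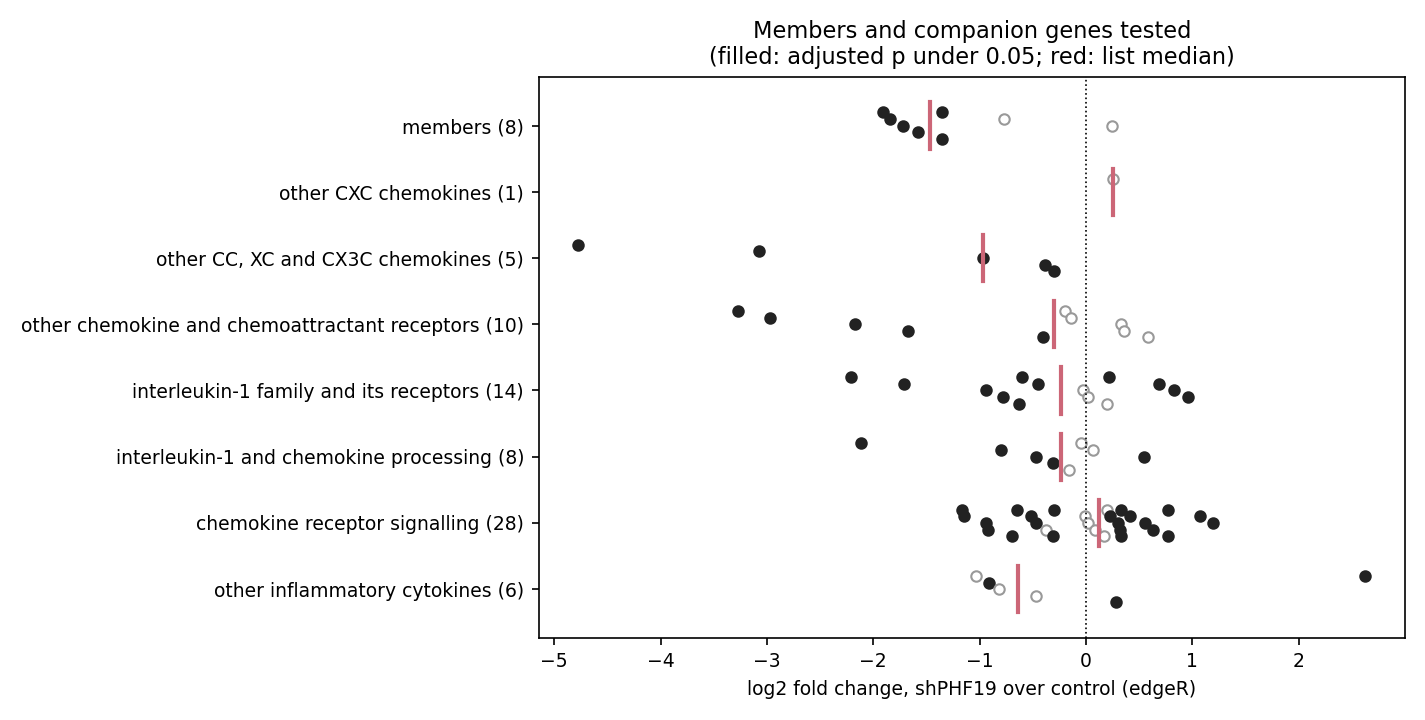
Log2 fold change of shPHF19 over control for the members and for each companion list, with the number tested in parentheses; filled points passed an adjusted p of 0.05 and the red bar is the list's median. The median of the members is -1.47 and that of the chemokine receptor signalling genes 0.13, which is -0.08 with library totals.

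Of 137 genes with GGAATTTCC in the 250 bases before a listed start, 51 were tested. Leaving out CXCL8, CXCL2 and CXCL3, 23 of the remaining 48 (47.9%) fell and 9 rose, against 30.9% and 29.4% of all genes, and their median log2 fold change was -0.30. This list was drawn up after the values of the members were seen, and its count is a description only.

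Of the tested genes, those whose log2 CPM followed CXCL8 most closely over the 6 libraries were AP4E1 (Pearson r = 0.9998), NAMPT (0.9997), RABGEF1 (0.9996), ERBB2IP (0.9991) and IFIT2 (0.9989). An r above 0.98 was found for 551 tested genes, over 6 libraries that fall into the same 2 groups, and the coefficients are a description. NAMPT, an enzyme of NAD synthesis, fell as well (log2 fold change -1.17, SE 0.0932; edgeR adjusted p = 3.99e-15).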

How the data were processed

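RNA-seq gene counts were analysed for 3 control and 3 shPHF19 libraries, grouped and numbered by the sample titles. The authors deposited a table of raw counts per gene symbol, and a table of their own comparison with a mean normalized signal, log2 fold changes and p-values, per the file headers. HISAT2 2.1.0, HTSeq 0.11.2 and hg38 are named in the submitters' processing notes. The sources used here give neither the annotation nor the strand setting.

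The counts went into edgeR 4.0.16 (R 4.3.3; filterByExpr, TMM, robust quasi-likelihood F test, group as the only term), with Benjamini-Hochberg adjustment over the 13014 genes tested and a threshold of 0.05. Standard errors were derived from the change and its F statistic. Alternatives were DESeq2 1.42.0, limma 3.58.1 (voom), other scalings and filters, a replicate block, and each library left out. The fit was tested on simulated counts. No 2 replicates agreed within sampling noise (chi-square per degree of freedom, 4.63 to 11.7). Positions and exon lengths came from GENCODE 29 and promoters from RefSeq. The members and the lists were chosen with earlier results of these data known. The genes named are the 10 members, their ligands and receptors, and up to 5 called genes of each companion list with the smallest adjusted p; others named were chosen after their values were seen. One item is not reported here.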

Additional observations from a re-analysis of the deposited data

How the results depend on the processing

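The number of members called lower, 6 in the reported fit, was 6 to 8 over the alternatives, and no member was called higher under any. They were not always the same members: without control replicate 2 CCR7 was lost and CCL3 was called. The count was 6 to 7 with each library left out, 8 with no filter on low counts, which brings in CCL3 and CXCR4, and 7 with DESeq2 or with library totals. CXCL8, CXCL2, CXCL16, CCL4 and CCR1 kept their call under all 14 alternatives, and CXCL3 was called under none of the 13 that tested it. Their log2 fold changes ran from -2.04 to -1.71 for CXCL8, -1.87 to -1.06 for CXCL2, -1.56 to -1.25 for CXCL16, -1.98 to -1.18 for CCL4, -2.11 to -1.78 for CCR1 and 0.04 to 0.37 for CXCL3. Companion genes called higher numbered 11 with library totals only, in place of 19, and 17 to 21 with a library left out; over all genes that scaling gave 31.6% of calls as higher in place of 48.8%, and the cause was not tested. Libraries with the same replicate number showed no shared deviation from their group means (correlations of deviations -0.16, -0.0066 and -0.054). With 3 libraries per group this cannot tell whether they were prepared in pairs, and the labels do not say. With the replicate block 6 members were called lower, none higher, and no member's call changed; 31 companion genes were lower and 17 higher, and CCL28 was no longer called (adjusted p = 0.0507). Fits of CCL3 and CXCR4 with no filter and a library left out were added after seeing the data. Depth limits CCL3, CXCL3 and CXCR4, with at most 16 counts in any library.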
